A study of Mus musculus with 10 samples.

Results

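Chemokines and their receptors were examined in lung RNA of 10 mice. The 62 members were all gene symbols of the deposited table that start with Ccl, Cxcl, Ccr, Cxcr or Ackr followed by a number, together with Xcl1, Xcr1, Cx3cl1 and Cx3cr1, out of 24394 symbols in all. They comprise 39 ligands, 19 signalling receptors and 4 atypical receptors, and 98 of the 66548 transcript rows. A name pattern chose them and no measured value entered it, although earlier results of these data were known. Values are FPKM, in which the fragments of a transcript are divided by its length in kilobases and by the mapped fragments of its library, summed over the rows of a symbol.

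All mice were female BALB/c, 8 weeks old when obtained, per the methods of the study. The control group was Saline (n = 3). The OVA group (n = 3) was the ovalbumin model of asthma, with intraperitoneal ovalbumin and alum on days 0 and 7 and intranasal ovalbumin for 4 days from day 12. Herb mice (n = 4) went through the same ovalbumin protocol and received the ethanol extract of Descurainia sophia seeds by mouth at 200 mg/kg on days 9 to 15, called DSE in the study. The labels state only that the Herb group was an asthma model under herbal treatment. The methods also name oral vehicle among the treatments of days 9 to 15, without stating whether the OVA mice sequenced here received it. The model is acute, whole lung was used, and the extract was given at this single dose in the libraries described here.

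Chemokines are small secreted proteins that guide leukocytes along gradients through receptors coupled to G proteins. In allergic airway inflammation, CCL11 and CCL24 draw eosinophils through CCR3, CCL17 and CCL22 draw Th2 cells through CCR4, and mouse CCL8 acts on CCR8. CCL2, CCL7 and CCL12 draw monocytes through CCR2, and CXCL1, CXCL2, CXCL3 and CXCL5 draw neutrophils through CXCR2. Atypical receptors bind chemokines without classical signalling and lower or shape the gradients.

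The depth was estimated from the steps between low values at 14800000 to 29500000 fragments per library, and only 37.6% to 42.5% of the low values lay within 0.1 of a whole fragment, so the estimate is rough. Lung identity was visible in each library, with the club cell gene Scgb1a1 at 2471 FPKM or more and the alveolar type 2 gene Sftpc at 210.0 FPKM or more. The 75th percentile of gene levels was 9.20 to 9.28 FPKM in Saline, 3.68 to 4.58 FPKM in OVA and 5.79 to 7.43 FPKM in Herb, so most genes were lower in OVA on the deposited scale. The median difference in log2(FPKM + 1) over the 11205 symbols with a mean of at least 1 FPKM was -0.75 in OVA vs. Saline, 0.48 in Herb vs. OVA and -0.27 in Herb vs. Saline. After each library was scaled to a common 75th percentile, these medians were 0.07, 0.01 and 0.09. Differences below are therefore given on the deposited and on the scaled values, and which scale is nearer to RNA per cell was not tested. The RNA came from whole lung, so fewer cells of a type and less RNA per cell cannot be told apart. Statements that groups overlap or not are of the deposited values unless they name the scaled ones. A gene is called changed at a limma adjusted p under 0.05, and a difference with its standard error (SE) is always one of log2(FPKM + 1).

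Among members with a mean of at least 1 FPKM, the main changes were these. Ccl8, a CCR8 ligand, and Ccl3, a ligand of CCR1, were higher in OVA than in Saline on both scales, and in Herb they were again higher than in Saline on both scales. Ccl5, Cxcl14, Cx3cl1 and the scavenger receptor Ackr3 were lower in OVA than in Saline on both scales. Of the members below 1 FPKM, the monocyte attractant Ccl2 and the neutrophil attractants Cxcl2 and Cxcl3 were higher in OVA than in Saline on both scales. Their Saline means were 0.0415, 0.223 and 0.0153 FPKM in this order, which rest on few or no fragments. They passed the minimum of 0.3 FPKM only through the OVA and Herb libraries, where they were higher. Between Herb and OVA, 9 members were higher on the deposited values, and no member was called in either direction after scaling. None was called lower in Herb than in OVA on either scale.

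Of the 62 members, 26 had a mean of at least 1 FPKM over the 10 libraries and entered the main test, 18 ligands, 6 signalling receptors and 2 atypical receptors. A further 21 had a mean between 0.3 and 1 FPKM and were tested in a fit with the lower minimum of 0.3 FPKM, which held 47 members. Ccl21b, Ccl26 and Ccl27b were listed at 0 in all 10 libraries. A listed 0 can be a failed estimate in this table, since the housekeeping gene Gapdh was listed at 0 in 9 libraries. In OVA vs. Saline on the deposited values, 2 of the 26 members were higher, against 3.28% of all symbols tested, and 10 (38.5%) were lower, against 57.9%. The median difference was -0.55 over the members and -0.75 over all symbols. On the scaled values, 5 members (19.2%) were higher, against 24.1% of all symbols, and 4 (15.4%) were lower, against 17.2%, with medians of 0.19 and 0.07. The 2 higher members are 7.69% of the 26. These shares are near the background or below it except for the 2 higher members, so the account below turns on single members. With the minimum of 0.3 FPKM, 5 of 47 members were higher and 14 lower on the deposited values, against 3.63% and 49.5% of 14327 symbols, and 11 were higher and 4 lower on the scaled values, against 23.9% and 14%.

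**Figure D1:**
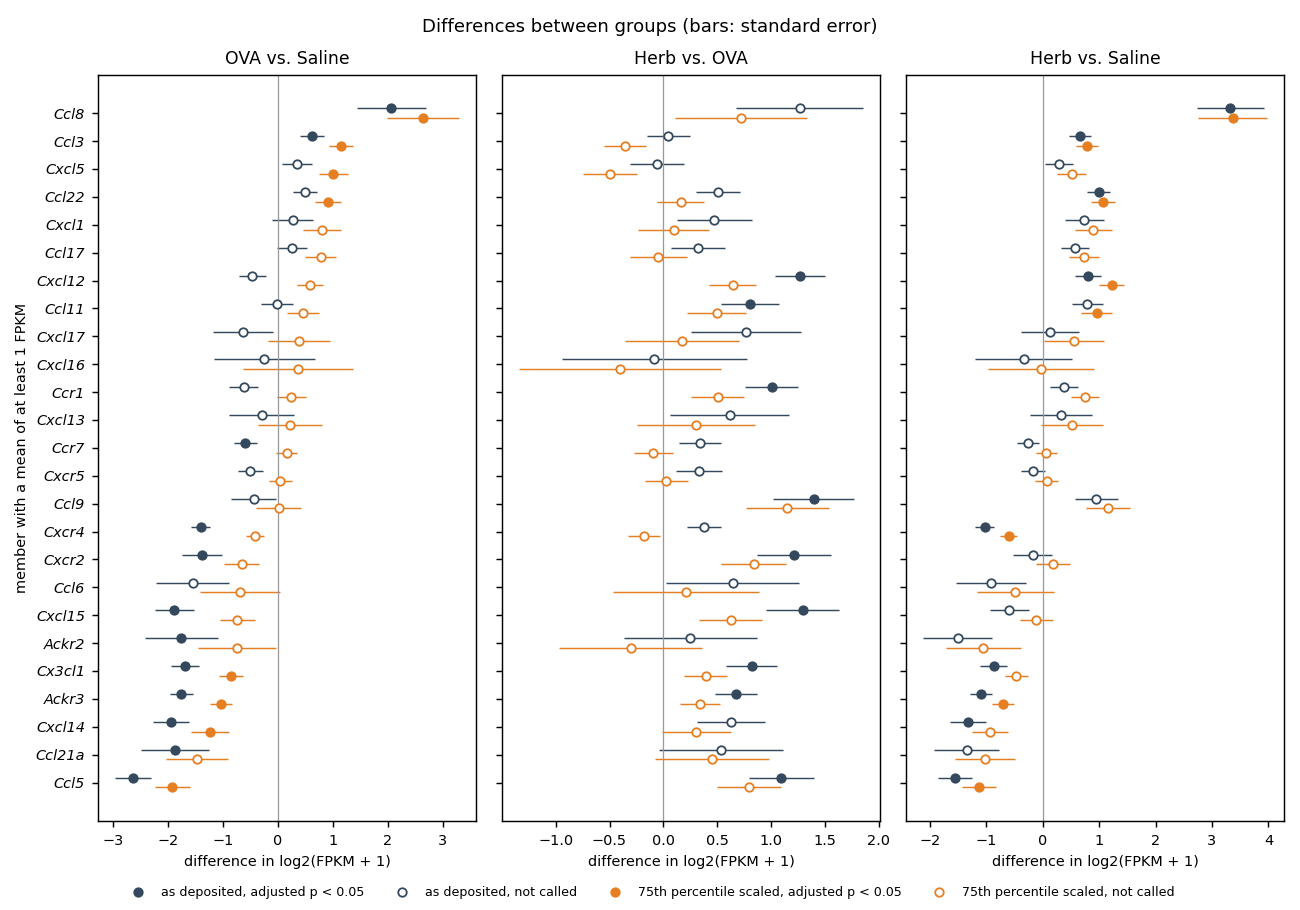
Difference in log2(FPKM + 1) for the members described here with a mean of at least 1 FPKM (rows, ordered by the scaled OVA vs. Saline difference) in OVA vs. Saline, Herb vs. OVA and Herb vs. Saline (panels), on the deposited values (dark) and after 75th percentile scaling (orange). Bars are standard errors and filled points have an adjusted p under 0.05. Scaling moves nearly all points of OVA vs. Saline to the right and those of Herb vs. OVA to the left, and the filled points of Herb vs. OVA are all from the deposited values.

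Among the 10 members of the eosinophil and Th2 axes, Ccl8 had the largest change. Ccl8 (chr11:82115185-82116799, RefSeq on GRCm38.p6, as for all positions here) was at 0.382, 0.272 and 0.131 FPKM in the Saline libraries, 1.42, 6.46 and 6.98 FPKM in the OVA libraries and 7.38, 6.22, 10.3 and 36.0 FPKM in the Herb libraries. Every OVA and Herb library was above every Saline library, the OVA and Herb libraries overlapped, and Herb replicate 4 was far above the other Herb libraries. The estimated number of fragments behind these values averaged 2.43 in Saline, 57.1 in OVA and 146.3 in Herb, so the Saline level rests on few fragments. The difference was 2.06 (SE 0.63, adjusted p = 0.0182) in OVA vs. Saline, 3.33 (SE 0.59, adjusted p = 0.00968) in Herb vs. Saline and 1.26 (SE 0.59, adjusted p = 0.107) in Herb vs. OVA. After scaling it was 2.65 (SE 0.66, adjusted p = 0.0119), 3.37 (SE 0.61, adjusted p = 0.0148) and 0.72 (SE 0.61, adjusted p = 0.477), in the same order. The OVA vs. Saline call was lost on the deposited values without Saline replicate 3, OVA replicate 2 or OVA replicate 3 (adjusted p up to 0.0628) and held in all 10 such fits after scaling (up to 0.0397). The Herb vs. Saline call held in all 10 fits on the deposited values, and after scaling it was lost without Saline replicate 2 (0.0643).

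The start region of Ccl8 is shown because this is the member that rose the most. It is the RefSeq promoter window of GRCm38.p6, 250 bases before to 50 bases after the start, on the plus strand of chr11:82114935-82115234, and the capitals mark the letters TATAAA of a TATA box.
Ccl8: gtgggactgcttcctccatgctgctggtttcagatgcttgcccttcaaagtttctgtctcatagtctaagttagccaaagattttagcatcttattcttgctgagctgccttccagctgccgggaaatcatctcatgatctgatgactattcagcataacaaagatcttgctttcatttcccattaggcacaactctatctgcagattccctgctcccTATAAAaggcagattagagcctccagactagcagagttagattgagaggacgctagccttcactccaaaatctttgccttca
A total of 46 of the 62 members had such an entry, and TATAAA occurred on either strand in 15 of them (32.6%), against 15.7% of all 27025 symbols with an entry. Members without an entry included Ccl11, Ccl2, Ccl21c, Ccl24, Ccl26, Ccl4, Ccl5, Ccl7, Ccr10, Ccr7, Cxcl11, Cxcl16, Cxcl17, Cxcl5 and Cxcr5. A match in letters is a description and not a binding site.

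Neither measured eotaxin was called in OVA vs. Saline. Ccl11 (eotaxin-1) was at 0.684, 1.21 and 0.337 FPKM in Saline, 0.443, 0.785 and 0.892 FPKM in OVA and 1.39, 1.37, 1.89 and 3.71 FPKM in Herb. The Saline and OVA libraries overlapped, and the Herb libraries lay above all of them, whereas on the scaled values Herb overlapped with OVA. The difference in Ccl11 was -0.01 (SE 0.29, adjusted p = 0.977) for OVA vs. Saline and 0.81 (SE 0.27, adjusted p = 0.0386) for Herb vs. OVA. After scaling these were 0.46 (SE 0.29, adjusted p = 0.236) and 0.49 (SE 0.28, adjusted p = 0.281). In Herb vs. Saline it was 0.79 (SE 0.27, adjusted p = 0.0586), and 0.96 (SE 0.28, adjusted p = 0.0475) after scaling. Both Ccl11 calls depended on single libraries, since 6 of the 10 fits with a library left out lost the deposited Herb vs. OVA call (adjusted p up to 0.126) and 9 of 10 lost the scaled Herb vs. Saline call (up to 0.137). Ccl24 (eotaxin-2) was at 0.310, 0.272 and 0.202 FPKM in Saline, 0.0792, 0.777 and 1.24 FPKM in OVA and 0.441, 0.418, 1.54 and 2.07 FPKM in Herb. One OVA library was below all Saline libraries and the other two were above them, and all Herb libraries were above all Saline libraries. Its mean was under 1 FPKM, and in the fit with the lower minimum no comparison of Ccl24 was called. The Ccl24 difference for OVA vs. Saline was 0.37 (SE 0.35, adjusted p = 0.403), and 0.69 (SE 0.40, adjusted p = 0.204) after scaling. Ccl26, the remaining eotaxin, was listed at 0 throughout.

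Of the CCR4 ligands, Ccl22 was called and Ccl17 was not. Ccl22, made mainly by dendritic cells and macrophages, was at 0.492, 0.193 and 0.255 FPKM in Saline, 0.769, 0.895 and 0.839 FPKM in OVA and 1.39, 0.933, 1.80 and 2.53 FPKM in Herb. The 3 groups did not overlap and ran upwards from Saline through OVA to Herb on the deposited values. After scaling OVA and Herb overlapped, Herb replicate 2 being below every OVA library, and Saline stayed below both. In OVA vs. Saline the Ccl22 difference was 0.49 (SE 0.22, adjusted p = 0.0798) on the deposited values and 0.91 (SE 0.23, adjusted p = 0.0132) after scaling, the latter call holding in all 10 fits with a library left out. In Herb vs. Saline it was 0.99 (SE 0.20, adjusted p = 0.0126) and 1.07 (SE 0.22, adjusted p = 0.0190), with the deposited call lost without Saline replicate 2 (0.0511) and the scaled call lost without Saline replicate 2, Saline replicate 3 or Herb replicate 3 (up to 0.0781). In Herb vs. OVA it was 0.50 (SE 0.20, adjusted p = 0.0716) and 0.16 (SE 0.22, adjusted p = 0.668). Ccl17 was at 0.195, 1.07 and 0.720 FPKM in Saline, 1.1, 0.759 and 0.977 FPKM in OVA and 0.914, 0.923, 1.96 and 2.13 FPKM in Herb. Its groups overlapped, although on the scaled values the OVA libraries were above the Saline ones. The Ccl17 difference was 0.26 (SE 0.27, adjusted p = 0.426) for OVA vs. Saline, 0.32 (SE 0.25, adjusted p = 0.324) for Herb vs. OVA and 0.58 (SE 0.25, adjusted p = 0.117) for Herb vs. Saline, and 0.78 (SE 0.28, adjusted p = 0.0550), -0.05 (SE 0.27, adjusted p = 0.930) and 0.73 (SE 0.27, adjusted p = 0.0931) after scaling. Ccl17 was the single member whose promoter window held TTCNNNNGAA, the letters of a STAT6 site, which 8.01% of all symbols with an entry held.

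The receptors of this axis were low, all with means under 1 FPKM. Ccr8, on Th2 and regulatory T cells, was at 0.230, 0.179 and 0.440 FPKM in Saline, 0.491, 0.558 and 0.366 FPKM in OVA and 0.854, 0.889, 0.598 and 0.624 FPKM in Herb. OVA replicate 3 lay within the Saline range on the deposited values and above it on the scaled ones, and all Herb libraries were above all Saline libraries. In the fit with the lower minimum Ccr8 differed by 0.53 (SE 0.10, adjusted p = 0.00498) in OVA vs. Saline after scaling and by 0.20 (SE 0.12, adjusted p = 0.184) before it, and by 0.44 (SE 0.11, adjusted p = 0.0258) in Herb vs. Saline before scaling and 0.51 (SE 0.10, adjusted p = 0.0181) after it. Ccr3, the eosinophil receptor, was at 0.0409, 0.0429 and 0.103 FPKM in Saline, 0.119, 0.303 and 0.105 FPKM in OVA and 0.161, 0.145, 0.120 and 0.375 FPKM in Herb, and Ccr4 was between 0.0910 and 0.319 FPKM over the 10 libraries. Both were below the minimum for a test. Ccl1, the other CCR8 ligand, was listed above 0 in 1 library only, OVA replicate 3 at 0.195 FPKM.

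The summed level of the 7 eosinophil and Th2 ligands was 1.65 to 3.02 FPKM in Saline, 3.81 to 11.1 FPKM in OVA and 9.86 to 46.4 FPKM in Herb, with Ccl8 the largest term in every OVA and Herb library. Markers of eosinophils moved in both directions. The summed level of 9 eosinophil markers was 24.5 to 48.7 FPKM in Saline, 5.41 to 11.7 FPKM in OVA and 11.4 to 16.9 FPKM in Herb. In Saline nearly all of it came from Ear1, Ear2 and Siglecf, which alveolar macrophages also express. Prg2 and Alox15 held a larger part of the sum in the other groups. Their means were 1.26 and 1.23 FPKM in OVA and 0.963 and 2.03 FPKM in Herb. Of the defining granule genes, Prg2 was listed at 0 in the 3 Saline libraries and was at 1.25, 1.65 and 0.876 FPKM in OVA and 0.977, 0, 0.732 and 2.14 FPKM in Herb, while Epx did not exceed 0.114 FPKM in any library. Of the 5 eosinophil markers tested in the fit with the lower minimum, Prg2 and Alox15 were called higher in OVA vs. Saline and Ear1, Ear2 and Siglecf lower, on both scales. Ccr3, given above, was higher in every OVA library than in every Saline library and was not tested. OVA replicate 3 at 0.105 FPKM was barely above Saline replicate 3 at 0.103 FPKM, with an estimated 7 fragments in each. The part of these markers in the chemokine values was not tested. Over 7 dendritic cell markers, Ccl22 and Xcr1 among them, the summed level was 5.84 to 7.91 FPKM in Saline, 5.56 to 7.35 FPKM in OVA and 10.4 to 12.9 FPKM in Herb. After scaling it was 4.03 to 5.42 in Saline, 9.24 to 10.2 in OVA and 9.24 to 12.7 in Herb. In the main test, Ccl22, Fscn1 and Zbtb46 were called higher in OVA vs. Saline after scaling and none before it. Flt3, Xcr1, Clec9a and Cd209a had means under 1 FPKM over the 10 libraries and were not in that test. Their deposited means in Saline and OVA were 0.464 and 0.842 FPKM for Flt3 and 0.126 and 0.142 FPKM for Xcr1. For Clec9a they were 1.14 and 0.846 FPKM, and for Cd209a 1.22 and 0.431 FPKM. The part of these markers in the Ccl22 values was not tested.

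**Figure D2:**
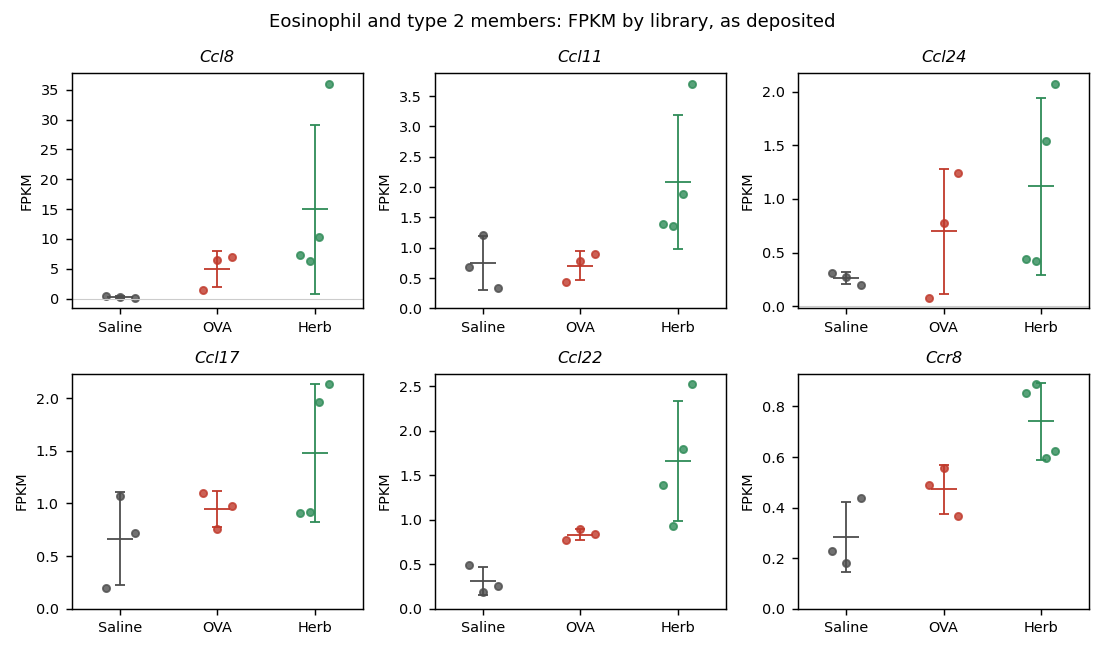
FPKM as deposited of 6 members of the eosinophil and Th2 axes in the Saline (n = 3), OVA (n = 3) and Herb (n = 4) libraries. Points are libraries, the horizontal mark is the mean and the bars are 1 SD; Ccl8 and Ccl22 are higher in every OVA and Herb library than in every Saline library, and Herb replicate 4 is the highest point of Ccl8, Ccl11, Ccl17, Ccl22 and Ccl24.

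The monocyte attractants were low and mostly listed at 0 in Saline. Ccl2 (MCP-1) was at 0.125, 0 and 0 FPKM in Saline, 0.217, 0.930 and 0.794 FPKM in OVA and 0.566, 0.462, 0.612 and 0.492 FPKM in Herb. Ccl7 (MCP-3) was at 0.0837, 0 and 0 FPKM in Saline, 0.203, 1.16 and 0.848 FPKM in OVA and 0, 0.144, 1.02 and 0.643 FPKM in Herb. Ccl12 (MCP-5) was listed at 0 in all Saline libraries and was at 0.189, 0.915 and 0.249 FPKM in OVA and 0, 0.884, 0.904 and 1.67 FPKM in Herb. All 3 ligands were higher in every OVA library than in every Saline library, and the Herb libraries overlapped with OVA. In the fit with the lower minimum, Ccl2 differed between OVA and Saline by 0.64 (SE 0.16, adjusted p = 0.00920) on the deposited values and 0.89 (SE 0.18, adjusted p = 0.00607) after scaling. For Ccl7 the difference was 0.72 (SE 0.29, adjusted p = 0.0606) and 0.98 (SE 0.31, adjusted p = 0.0366), and for Ccl12 it was 0.50 (SE 0.32, adjusted p = 0.218) and 0.68 (SE 0.33, adjusted p = 0.134). Ccl2 was also higher in Herb vs. Saline on the deposited values, 0.56 (SE 0.15, adjusted p = 0.0333), and was not called after scaling, 0.56 (SE 0.17, adjusted p = 0.0620). None of the 3 was called in Herb vs. OVA. The fit with the lower minimum was not repeated with a library left out.

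Ccr2, the receptor of these ligands, was at 2.16, 0.0153 and 0.0936 FPKM in Saline, 0, 0.886 and 0.0904 FPKM in OVA and 0.846, 2.82, 0.0883 and 2.26 FPKM in Herb. The values varied widely within each group, the groups overlapped, and no comparison of Ccr2 was called. The summed level of 8 markers of monocytes and interstitial macrophages, Ccr2 among them, was 25.4 to 43.9 FPKM in Saline, 10.8 to 29.6 FPKM in OVA and 35.4 to 70.1 FPKM in Herb, and Csf1r did not exceed 0.158 FPKM. After scaling the sum was 17.4 to 30.3 in Saline, 18.7 to 41 in OVA and 38.9 to 68.9 in Herb. C1qa, C1qb and C1qc carried most of it in Herb. The monocyte gene Ly6c2 had deposited means of 9.36 FPKM in Saline, 2.11 FPKM in OVA and 3.36 FPKM in Herb. The part of these markers in the ligand values was not tested. The summed level of 7 alveolar macrophage markers was 83.6 to 191.3 FPKM in Saline, 81.8 to 278.4 FPKM in OVA and 341.4 to 618.3 FPKM in Herb. After scaling it was 57.6 to 132.2 in Saline, 141.5 to 386.5 in OVA and 292.3 to 679.7 in Herb. Saline lay below both other groups on that scale, and Chil3 made up most of the sum in every library. Chil3, Itgax and Pparg were called higher and Fabp1 lower in OVA vs. Saline after scaling. The deposited mean of Plet1 was 9.48 FPKM in Saline, 1.36 FPKM in OVA and 1.03 FPKM in Herb. The part of these markers in the levels of Ccl2, Ccl3 and Ccl8 was not tested either.

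Fractalkine went the other way. Cx3cl1 (chr8:94772180-94782427), a membrane-bound chemokine of endothelium and epithelium for monocytes and NK cells, was at 7.91, 4.37 and 7.32 FPKM in Saline, 1.06, 1.83 and 1.05 FPKM in OVA and 3.46, 4.36, 2.34 and 2.33 FPKM in Herb. The OVA libraries were below all others, and the highest Herb library was just below the lowest Saline library. On the scaled values OVA was still below Saline, and Herb overlapped with both. The difference in Cx3cl1 was -1.68 (SE 0.25, adjusted p = 0.000461) for OVA vs. Saline, and after scaling -0.86 (SE 0.21, adjusted p = 0.0122), and both calls held in all 10 fits with a library left out. It was 0.82 (SE 0.24, adjusted p = 0.0226) in Herb vs. OVA and -0.86 (SE 0.24, adjusted p = 0.0300) in Herb vs. Saline on the deposited values, and 0.39 (SE 0.20, adjusted p = 0.242) and -0.46 (SE 0.20, adjusted p = 0.141) after scaling. The 2 deposited calls were each lost in 4 of the 10 fits with a library left out, with an adjusted p up to 0.0776 in Herb vs. OVA and up to 0.10 in Herb vs. Saline. Its receptor Cx3cr1 was at 1.11, 0.328 and 1.25 FPKM in Saline, 0.212, 0.471 and 0.124 FPKM in OVA and 1.1, 1.48, 0.643 and 0.921 FPKM in Herb, with 0.68 (SE 0.21, adjusted p = 0.0351) in Herb vs. OVA before scaling and 0.50 (SE 0.18, adjusted p = 0.141) after it.

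Among the myeloid and T cell attractants around CCR1, Ccl3 rose and Ccl5 fell. Ccl3 (MIP-1 alpha), which acts on macrophages and T cells, was at 0.526, 0.719 and 0.308 FPKM in Saline, 0.80, 1.90 and 1.38 FPKM in OVA and 0.931, 1.38, 1.60 and 1.73 FPKM in Herb. All OVA and Herb libraries were above all Saline libraries, and OVA and Herb overlapped. Its difference was 0.62 (SE 0.21, adjusted p = 0.0311) in OVA vs. Saline, 0.66 (SE 0.20, adjusted p = 0.0397) in Herb vs. Saline and 0.05 (SE 0.20, adjusted p = 0.868) in Herb vs. OVA, and 1.15 (SE 0.21, adjusted p = 0.00344), 0.79 (SE 0.20, adjusted p = 0.0319) and -0.36 (SE 0.20, adjusted p = 0.279) after scaling. The scaled OVA vs. Saline call held in all 10 fits with a library left out, the deposited one was lost in 4 (adjusted p up to 0.115), and in Herb vs. Saline 7 deposited fits (up to 0.124) and 5 scaled fits (up to 0.0924) lost the call. The annotated spans of Ccl3 (chr11:83647843-83649378) and Ccl4 (chr11:83648624-83664683) overlap, and the sources differ on whether the library kit kept the strand, so reads of the overlap cannot be told apart. Ccl4 (MIP-1 beta) was at 0.174, 0.283 and 0.245 FPKM in Saline, 0, 0 and 0.349 FPKM in OVA and 0.519, 0.435, 0.698 and 0.930 FPKM in Herb. All Herb libraries were above all others on the deposited values, and on the scaled ones OVA replicate 3 was among them, with 0.57 (SE 0.14, adjusted p = 0.0165) in Herb vs. OVA before scaling and 0.49 (SE 0.18, adjusted p = 0.140) after it.

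The promoter window of Ccl3 is shown for comparison with that of Ccl8, as the other of the 26 members that was higher in OVA on both scales. It lies on the minus strand of chr11:83649329-83649628 (GRCm38.p6, RefSeq), and it held neither TATAAA nor GGGNNNTTCC, a short form of the NF-kB site, on either strand.
Ccl3: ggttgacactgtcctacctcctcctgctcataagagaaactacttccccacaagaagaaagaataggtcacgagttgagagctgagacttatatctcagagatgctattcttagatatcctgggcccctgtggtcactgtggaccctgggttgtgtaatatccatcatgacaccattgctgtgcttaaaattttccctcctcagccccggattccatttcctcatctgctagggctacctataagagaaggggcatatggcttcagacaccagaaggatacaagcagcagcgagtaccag

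Ccl5 (chr11:83525778-83530518; RANTES), a product mainly of T cells and NK cells that attracts T cells and myeloid cells, had the largest decrease of the 26 members in OVA vs. Saline on both scales. It was at 10.9, 8.19 and 6.70 FPKM in Saline, 0.534, 0.280 and 0.770 FPKM in OVA and 1.64, 3.21, 1.03 and 3.85 FPKM in Herb. The 3 groups did not overlap, with Saline highest, Herb between and OVA lowest. After scaling Saline was still above both others, and OVA and Herb overlapped. The difference in Ccl5 was -2.64 (SE 0.32, adjusted p = 0.000189) in OVA vs. Saline, -1.55 (SE 0.30, adjusted p = 0.0111) in Herb vs. Saline and 1.09 (SE 0.30, adjusted p = 0.0187) in Herb vs. OVA. After scaling it was -1.92 (SE 0.32, adjusted p = 0.00227), -1.13 (SE 0.30, adjusted p = 0.0368) and 0.80 (SE 0.30, adjusted p = 0.133). Both OVA vs. Saline calls and the deposited Herb vs. Saline call held in all 10 fits with a library left out. The Herb vs. OVA call was lost without OVA replicate 1 or OVA replicate 2 (up to 0.0562), and the scaled Herb vs. Saline call was lost in 5 fits (up to 0.115). The summed level of 6 T cell markers moved with it on the deposited values, at 8.0 to 14.3 FPKM in Saline, 2.76 to 6.16 FPKM in OVA and 5.33 to 11.7 FPKM in Herb, and after scaling its groups overlapped, at 5.53 to 9.87, 4.77 to 9.36 and 5.86 to 11.5. Of the 3 T cell markers in the main test, Cd3e and Cd3g were lower in OVA vs. Saline on the deposited values. None of the 3 was called after scaling. Cd3d, Cd4 and Cd8a had means under 1 FPKM and were not in that test. Cd3d was at 1.49 to 2.14 FPKM in Saline and 0.0873 to 0.381 FPKM in OVA, and these groups did not overlap on the scaled values either. Cd4 and Cd8a overlapped between OVA and Saline on the deposited values. The part of the T cell markers in the Ccl5 values was not tested.

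Ccr1, a receptor of myeloid cells for these ligands, was at 3.05, 4.65 and 5.34 FPKM in Saline, 1.28, 2.68 and 3.74 FPKM in OVA and 5.12, 6.37, 5.89 and 6.07 FPKM in Herb. All Herb libraries were above all OVA libraries, Saline lay across them, and on the scaled values OVA overlapped with Herb. The Ccr1 difference was 1.00 (SE 0.25, adjusted p = 0.0122) in Herb vs. OVA, a call that held in all 10 fits with a library left out, and 0.50 (SE 0.25, adjusted p = 0.226) after scaling.

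Of the myeloid ligands of CCR1, Ccl9 was at 1.48, 1.25 and 0.526 FPKM in Saline, 0.177, 0.888 and 0.527 FPKM in OVA and 4.69, 1.00, 2.60 and 4.92 FPKM in Herb. All Herb libraries were above all OVA libraries, though not on the scaled values, with a Ccl9 difference of 1.39 (SE 0.38, adjusted p = 0.0174), and 1.15 (SE 0.39, adjusted p = 0.111) after scaling. The deposited call was lost without OVA replicate 1 (0.0674). Ccl6 was at 10.8, 16.7 and 5.02 FPKM in Saline, 0.342, 2.58 and 9.40 FPKM in OVA and 4.0, 4.03, 4.47 and 6.98 FPKM in Herb. Its 3 groups overlapped and no comparison was called. Ccr1l1, a gene next to Ccr1, did not exceed 0.161 FPKM. The genes of these ligands lie in clusters. On chromosome 11, Ccl2, Ccl7, Ccl11, Ccl12, Ccl8 and Ccl1 lie between 82035577 and 82179812, and Ccl5, Ccl9, Ccl6, Ccl3 and Ccl4 between 83525778 and 83664683. Ccl5, which had the largest decrease, and Ccl3, which was higher, are thus in the same cluster.

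**Figure D3:**
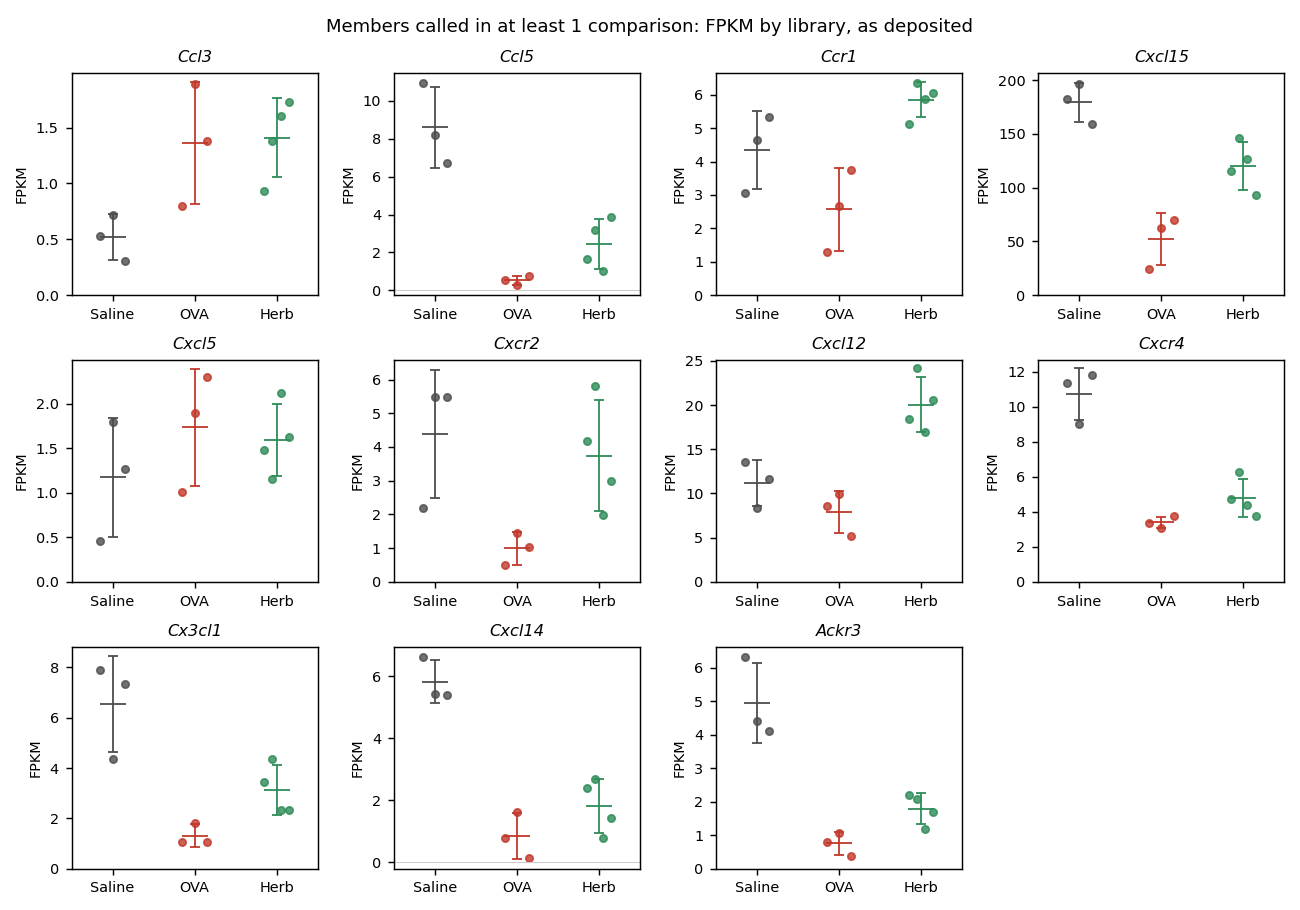
FPKM as deposited of 11 further members called in at least 1 comparison, in the Saline (n = 3), OVA (n = 3) and Herb (n = 4) libraries. Points are libraries, the horizontal mark is the mean and the bars are 1 SD; Ccl5, Cxcl15, Cxcr4, Cx3cl1, Cxcl14 and Ackr3 are lower in every OVA library than in every Saline library, and Cxcl12 is higher in every Herb library than in all others.

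Cxcl15 (lungkine), a neutrophil attractant of airway epithelium, was the most abundant member by far. It was at 182, 196 and 159.7 FPKM in Saline, 24.7, 62.3 and 70.2 FPKM in OVA and 115, 146, 126 and 93.1 FPKM in Herb, and it made up 33.9% to 62.0% of the summed FPKM of the family. The 3 groups did not overlap on the deposited values, with Saline highest and OVA lowest. On the scaled values OVA was still below Saline, Herb overlapped with both, and the highest Herb library was above every Saline library. Its difference was -1.88 (SE 0.36, adjusted p = 0.00167) in OVA vs. Saline, 1.29 (SE 0.34, adjusted p = 0.0153) in Herb vs. OVA and -0.59 (SE 0.34, adjusted p = 0.222) in Herb vs. Saline, and the first 2 were called in all 10 fits with a library left out. After scaling the differences were -0.74 (SE 0.31, adjusted p = 0.0892), 0.62 (SE 0.29, adjusted p = 0.212) and -0.11 (SE 0.29, adjusted p = 0.822), none of them called. The summed level of lung epithelium markers moved with Cxcl15, at 16653 to 26270 FPKM in Saline, 2844 to 5450 FPKM in OVA and 8428 to 13494 FPKM in Herb. After scaling it was 11409 to 18155, 4919 to 8288 and 9074 to 11551. Scgb1a1 made up most of this sum in every library, with deposited means of 17538, 3929 and 9132 FPKM in the same order. Of the 7 epithelial markers, 5 were lower in OVA vs. Saline after scaling and the cilia gene Foxj1 was higher, and their part in the Cxcl15 values was not tested.

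None of the CXCR2 ligands encoded beside Cxcl15 on chromosome 5 was called lower in OVA. Cxcl1 (KC) was at 0.240, 1.13 and 1.04 FPKM in Saline, 0.465, 1.51 and 1.56 FPKM in OVA and 3.75, 1.91, 1.90 and 0.833 FPKM in Herb. Its groups overlapped, although on the scaled values all OVA and Herb libraries were above all Saline libraries, and no Cxcl1 difference was called. Cxcl2 (MIP-2) was at 0, 0.259 and 0.410 FPKM in Saline, 0.493, 0.492 and 1.06 FPKM in OVA and 0.949, 0.715, 0.625 and 0.828 FPKM in Herb. Cxcl3 was at 0, 0.0459 and 0 FPKM in Saline, 0.316, 0.640 and 2.91 FPKM in OVA and 1.16, 0.622, 0.755 and 1.53 FPKM in Herb. For Cxcl2 and Cxcl3, every OVA and Herb library was above every Saline library, and OVA and Herb overlapped. In the fit with the lower minimum, the OVA vs. Saline difference of Cxcl2 was 0.46 (SE 0.17, adjusted p = 0.0461) on the deposited values and 0.81 (SE 0.17, adjusted p = 0.00678) after scaling. That of Cxcl3 was 1.00 (SE 0.35, adjusted p = 0.0382) and 1.31 (SE 0.41, adjusted p = 0.0323). In Herb vs. Saline, Cxcl2 was called on both scales, 0.55 (SE 0.16, adjusted p = 0.0387) and 0.60 (SE 0.16, adjusted p = 0.0427), and Cxcl3 was not, 0.97 (SE 0.33, adjusted p = 0.0664) and 0.95 (SE 0.38, adjusted p = 0.126). Cxcl5 (LIX), an epithelial product, was at 0.461, 1.79 and 1.27 FPKM in Saline, 1.01, 1.89 and 2.30 FPKM in OVA and 1.48, 1.15, 2.1 and 1.63 FPKM in Herb. These groups overlapped on the deposited values, on the scaled ones all OVA libraries were above all Saline libraries, and the OVA vs. Saline difference was 0.35 (SE 0.27, adjusted p = 0.286), and 1.01 (SE 0.27, adjusted p = 0.0159) after scaling, a call lost without Saline replicate 1 or OVA replicate 3 (up to 0.0531).

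The promoter windows of Cxcl1, Cxcl2 and Cxcl3 are shown because these 3 neighbours, all ligands of CXCR2, share the stretch GGGAATTTCC. Capitals mark GGGNNNTTCC, the short NF-kB form used here, on either strand, and in Cxcl3 also TATAAA. The windows are from RefSeq, GRCm38.p6, plus strand, at chr5:90890995-90891294 for Cxcl1, chr5:90903649-90903948 for Cxcl2 and chr5:90785851-90786150 for Cxcl3.
Cxcl1: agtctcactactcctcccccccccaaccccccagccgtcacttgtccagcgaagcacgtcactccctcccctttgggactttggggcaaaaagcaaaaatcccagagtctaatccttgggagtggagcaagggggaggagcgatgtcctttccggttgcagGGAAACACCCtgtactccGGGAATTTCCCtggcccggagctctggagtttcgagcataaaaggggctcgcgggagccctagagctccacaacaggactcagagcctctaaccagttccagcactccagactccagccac
Cxcl2: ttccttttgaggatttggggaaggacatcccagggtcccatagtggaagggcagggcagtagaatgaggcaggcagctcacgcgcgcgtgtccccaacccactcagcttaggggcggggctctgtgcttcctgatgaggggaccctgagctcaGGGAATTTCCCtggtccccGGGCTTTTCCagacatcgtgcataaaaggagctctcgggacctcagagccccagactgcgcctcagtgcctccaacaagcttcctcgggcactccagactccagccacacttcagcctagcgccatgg
Cxcl3: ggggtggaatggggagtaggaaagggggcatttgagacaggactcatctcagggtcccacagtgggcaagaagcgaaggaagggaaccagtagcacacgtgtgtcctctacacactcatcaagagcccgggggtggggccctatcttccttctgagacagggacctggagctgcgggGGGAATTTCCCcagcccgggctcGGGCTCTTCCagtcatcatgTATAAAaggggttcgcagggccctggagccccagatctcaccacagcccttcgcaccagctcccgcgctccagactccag
Counted from the start, with the base before it as -1, GGGAATTTCC begins at -71 in Cxcl1, -97 in Cxcl2 and -73 in Cxcl3, and in each it also matches on the minus strand 1 base further on. GGGNNNTTCC occurred in 9 of the 46 members with an entry (19.6%), against 6.31% of all symbols. The other 6 were Ccl1, Ccl20, Ccl9, Ccr3, Ccr6 and Cxcl10, of which Ccl9 entered the main test and was not called in OVA vs. Saline. These shares are a description and no test was made on them.

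The receptor Cxcr2, carried mainly by neutrophils, was at 2.19, 5.48 and 5.48 FPKM in Saline, 0.490, 1.46 and 1.04 FPKM in OVA and 4.18, 5.81, 1.98 and 3.0 FPKM in Herb. The OVA libraries were below all others, Saline and Herb overlapped, and on the scaled values OVA overlapped with Saline. Cxcr2 differed by -1.39 (SE 0.37, adjusted p = 0.00911) in OVA vs. Saline, a call that held in all 10 fits with a library left out, and by 1.21 (SE 0.34, adjusted p = 0.0206) in Herb vs. OVA, a call lost without OVA replicate 1, Herb replicate 1 or Herb replicate 2 (up to 0.0802). After scaling the differences were -0.66 (SE 0.32, adjusted p = 0.129) and 0.84 (SE 0.30, adjusted p = 0.126). Cxcr1 was at 1.31, 1.72 and 0.852 FPKM in Saline, 0.238, 0.409 and 0.0877 FPKM in OVA and 0.234, 1.02, 0.287 and 0.135 FPKM in Herb. The OVA libraries were below all Saline libraries, with -0.87 (SE 0.23, adjusted p = 0.0105) before scaling and -0.46 (SE 0.21, adjusted p = 0.114) after it in the fit with the lower minimum. In Herb vs. Saline the Cxcr1 difference was -0.71 (SE 0.21, adjusted p = 0.0447) and -0.47 (SE 0.20, adjusted p = 0.143). Over 8 neutrophil markers the summed level was 40.9 to 472.0 FPKM in Saline, 11.3 to 57.2 FPKM in OVA and 53.2 to 133.5 FPKM in Herb, with S100a9 at 416.3 FPKM in Saline replicate 2 and listed at 0 in 6 libraries. After scaling the sum was 28.0 to 326.2 in Saline, 19.6 to 87.0 in OVA and 49.6 to 114.3 in Herb. By deposited means, Ltf was higher in OVA than in Saline, at 8.29 and 0.594 FPKM, and the other neutrophil markers were lower. S100a8, S100a9 and Mmp9 had their highest mean in Saline, and Retnlg, Ngp, Camp, Ltf and Csf3r in Herb. The part of the neutrophil markers in the receptor values was not tested.

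Cxcl12, the ligand of CXCR4 that retains leukocytes and progenitors in tissue, was higher in Herb than in both other groups on the deposited values. It was at 13.6, 8.37 and 11.6 FPKM in Saline, 8.63, 9.89 and 5.23 FPKM in OVA and 18.4, 24.1, 17 and 20.5 FPKM in Herb. All Herb libraries were above all others, and Saline and OVA overlapped. The Cxcl12 difference was 1.26 (SE 0.23, adjusted p = 0.00716) in Herb vs. OVA and 0.80 (SE 0.23, adjusted p = 0.0346) in Herb vs. Saline, and 0.64 (SE 0.22, adjusted p = 0.113) and 1.23 (SE 0.22, adjusted p = 0.0145) after scaling. In OVA vs. Saline it was -0.47 (SE 0.25, adjusted p = 0.131) before and 0.58 (SE 0.23, adjusted p = 0.0737) after scaling, changing sign without being called. The Herb vs. OVA call held in all 10 fits with a library left out, and the deposited Herb vs. Saline call was lost in 6 of them (up to 0.120), the scaled one only without Saline replicate 2 (0.0637). Of the 3 transcript rows of Cxcl12, 2 carried nearly all of the level and were each higher in every Herb library than in every OVA library.

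Cxcr4, the receptor of Cxcl12, was at 11.3, 9.02 and 11.8 FPKM in Saline, 3.38, 3.08 and 3.74 FPKM in OVA and 4.71, 6.28, 4.38 and 3.73 FPKM in Herb. All Saline libraries were above all others, and Herb and OVA overlapped. Cxcr4 differed by -1.41 (SE 0.17, adjusted p = 0.000188) for OVA vs. Saline and -1.03 (SE 0.16, adjusted p = 0.00817) for Herb vs. Saline, and both calls held in all 10 fits with a library left out. After scaling the differences were -0.42 (SE 0.16, adjusted p = 0.0606) and -0.60 (SE 0.15, adjusted p = 0.0316), the latter call being lost in 6 fits (up to 0.0946). Ackr3, which takes up CXCL12, was at 6.32, 4.41 and 4.12 FPKM in Saline, 0.811, 1.06 and 0.395 FPKM in OVA and 2.20, 2.09, 1.18 and 1.70 FPKM in Herb. The 3 groups of Ackr3 did not overlap on the deposited values, with Saline highest and OVA lowest, and on the scaled values OVA and Herb overlapped below Saline. The Ackr3 difference was -1.76 (SE 0.21, adjusted p = 0.000178) in OVA vs. Saline, 0.67 (SE 0.20, adjusted p = 0.0232) in Herb vs. OVA and -1.09 (SE 0.20, adjusted p = 0.00983) in Herb vs. Saline, and -1.04 (SE 0.20, adjusted p = 0.00425), 0.34 (SE 0.19, adjusted p = 0.281) and -0.70 (SE 0.19, adjusted p = 0.0387) after scaling. The OVA vs. Saline calls held in all 10 fits on both scales, the deposited Herb vs. OVA call was lost in 4 (up to 0.0772), and the scaled Herb vs. Saline call was lost in 7 (up to 0.122). Over 5 blood endothelium markers the sum was 318.7 to 399.8 FPKM in Saline, 69.7 to 109.5 in OVA and 147.2 to 270.7 in Herb. After scaling it was 220.3 to 273.9, 105.9 to 169.2 and 144.6 to 231.7, in the same order. Pecam1, Cdh5 and Cldn5 carried most of it and were lower in every OVA library than in every Saline library as deposited. Tie1 and Vwf overlapped, and on the scaled values Vwf in OVA replicates 1 and 2 was above every Saline library. The part of these markers in the Ackr3 values was not tested.

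Cxcl14, an epithelial and stromal chemokine, was at 6.61, 5.43 and 5.40 FPKM in Saline, 0.793, 1.62 and 0.156 FPKM in OVA and 2.40, 2.67, 0.796 and 1.43 FPKM in Herb. All Saline libraries were above all others, and OVA and Herb overlapped. Cxcl14 differed by -1.95 (SE 0.33, adjusted p = 0.000876) for OVA vs. Saline and -1.32 (SE 0.31, adjusted p = 0.0186) for Herb vs. Saline, and by -1.23 (SE 0.34, adjusted p = 0.0195) and -0.93 (SE 0.32, adjusted p = 0.0801) after scaling. The scaled OVA vs. Saline call was lost without Saline replicate 1 (0.0594), and the deposited Herb vs. Saline call was lost without any 1 of the Saline libraries (up to 0.0607). Cxcl17, a mucosal chemokine, was at 6.58, 15.1 and 11.5 FPKM in Saline, 3.23, 4.42 and 16.8 FPKM in OVA and 9.64, 8.16, 11.1 and 20.4 FPKM in Herb, with overlapping groups and no call. Ackr2, the scavenger of inflammatory CC chemokines, was at 14.3, 14.7 and 19.7 FPKM in Saline, 8.32, 1.34 and 4.90 FPKM in OVA and 1.09, 11.8, 6.34 and 5.62 FPKM in Herb. All Saline libraries were above all others, which no longer held on the scaled values, and the difference in OVA vs. Saline was -1.76 (SE 0.66, adjusted p = 0.0423), a call lost in 7 of the 10 fits with a library left out (up to 0.144), and -0.74 (SE 0.71, adjusted p = 0.428) after scaling. Ackr4, the scavenger of CCL19 and CCL21, was at 0.618, 0.681 and 0.752 FPKM in the Saline libraries, above all OVA libraries at 0.145, 0.30 and 0.169 FPKM, with -0.48 (SE 0.12, adjusted p = 0.00678) before scaling and -0.17 (SE 0.10, adjusted p = 0.205) after it. Ackr1 did not exceed 0.574 FPKM and was listed at 0 in 6 libraries.

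The lymphoid chemokines were low and uneven. Ccl21a, made by lymphatic endothelium for CCR7-bearing cells, was at 7.14, 0.434 and 4.16 FPKM in Saline, 0.212, 0 and 0 FPKM in OVA and 1.39, 0, 0 and 1.37 FPKM in Herb. The Saline libraries were above the OVA libraries on the deposited values only, and within Saline they ranged widely. The Ccl21a difference in OVA vs. Saline was -1.88 (SE 0.62, adjusted p = 0.0248), and -1.48 (SE 0.57, adjusted p = 0.0647) after scaling. The deposited call was lost in 4 of the 10 fits with a library left out (up to 0.0891). Ccl21a, Ccl21b and Ccl21c are near-identical copies, so the split of reads among them is uncertain, and Ccl21c did not exceed 0.283 FPKM. A sum over 5 lymphatic endothelium markers was 119.8 to 128.6 FPKM in Saline, 11.1 to 29.9 in OVA and 34.9 to 85.9 in Herb. Scaled, it was 82.5 to 88.4, 16.9 to 41.4 and 38.3 to 78.1, in the same order. Its Saline range was narrow, whereas Ccl21a ran from 0.434 to 7.14 FPKM in Saline. Lyve1 and Pdpn carried most of the sum and, with Mmrn1, were called lower in OVA vs. Saline on both scales. Flt4 was called lower on the deposited values only. Prox1 was below the minimum for a test, with deposited means of 0.259 FPKM in Saline, 0.228 in OVA and 0.348 in Herb. The OVA and Saline libraries of Prox1 overlapped. How far these markers account for the Ccl21a values was not tested.

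Ccr7, the receptor for CCL19 and CCL21, was at 2.29, 1.77 and 4.19 FPKM in Saline, 1.17, 1.45 and 1.57 FPKM in OVA and 1.95, 1.93, 1.93 and 2.30 FPKM in Herb. All OVA libraries were below all others on the deposited values, and the groups overlapped on the scaled ones. The Ccr7 difference in OVA vs. Saline was -0.60 (SE 0.21, adjusted p = 0.0319) on the deposited values and 0.16 (SE 0.20, adjusted p = 0.540) after scaling, so its direction depended on the scale, and the deposited call was lost without Saline replicate 3, OVA replicate 1 or OVA replicate 2 (up to 0.0942). Cxcl13, the B cell attractant, was at 1.38, 1.65 and 0.383 FPKM in Saline, 0.375, 0.660 and 1.06 FPKM in OVA and 0.575, 1.54, 0.383 and 6.81 FPKM in Herb. Herb replicate 4 was above all other libraries and no comparison was called. Its receptor Cxcr5 ranged from 0.303 to 1.96 FPKM without a call, and Ccl19 did not exceed 0.269 FPKM.

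Of the 8 Th1, NK cell and dendritic cell members, only Cxcl16 reached a mean of 1 FPKM. Cxcl16, the CXCR6 ligand, was at 0.604, 1.06 and 4.55 FPKM in Saline, 4.92, 0.164 and 0.574 FPKM in OVA and 0.355, 0.0115, 8.44 and 0.467 FPKM in Herb. A single library of each group was far above the other libraries of that group, and no comparison was called. Its receptor Cxcr6 was at 1.40, 0.771 and 0.691 FPKM in Saline, 0, 0.440 and 0.325 FPKM in OVA and 0.530, 0, 0.369 and 0.661 FPKM in Herb, with -0.64 (SE 0.23, adjusted p = 0.0378) in OVA vs. Saline before scaling and -0.29 (SE 0.23, adjusted p = 0.347) after it. The interferon-induced CXCR3 ligands Cxcl9, Cxcl10 and Cxcl11 did not exceed 0.292, 0.436 and 0.0608 FPKM. Their receptor Cxcr3 ranged from 0.148 to 0.746 FPKM without a call. Xcl1 did not exceed 0.202 FPKM, and Xcr1, on cross-presenting dendritic cells, did not exceed 0.448 FPKM.

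None of the 8 epithelial chemokines and their receptors reached a mean of 1 FPKM. Ccl20, the CCR6 ligand, ranged from 0.167 to 1.91 FPKM, and Ccr6 from 0.0273 to 2.13 FPKM, with overlapping groups and no call. Ccl25, Ccl27a and Ccl28 reached at most 0.580, 0.918 and 0.432 FPKM. Ccr9, the gut-homing receptor, was at 0.720, 0.548 and 0.760 FPKM in Saline, 0.115, 0.289 and 0.244 FPKM in OVA and 0.709, 0.776, 0.544 and 0.508 FPKM in Herb. All OVA libraries were below all others, and on the scaled values OVA overlapped with Saline, with -0.46 (SE 0.11, adjusted p = 0.00585) for OVA vs. Saline and 0.43 (SE 0.10, adjusted p = 0.0142) for Herb vs. OVA, and -0.15 (SE 0.10, adjusted p = 0.250) and 0.28 (SE 0.09, adjusted p = 0.116) after scaling. Ccr10, the receptor of CCL27 and CCL28, was at 0.308, 0.135 and 0.350 FPKM in the Saline libraries and at 0.257, 0.621 and 0.473 FPKM in the OVA libraries, of which replicate 1 lay within the Saline range before scaling and above it after, with 0.19 (SE 0.12, adjusted p = 0.221) before scaling and 0.50 (SE 0.12, adjusted p = 0.00994) after it.

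**Figure D4:**
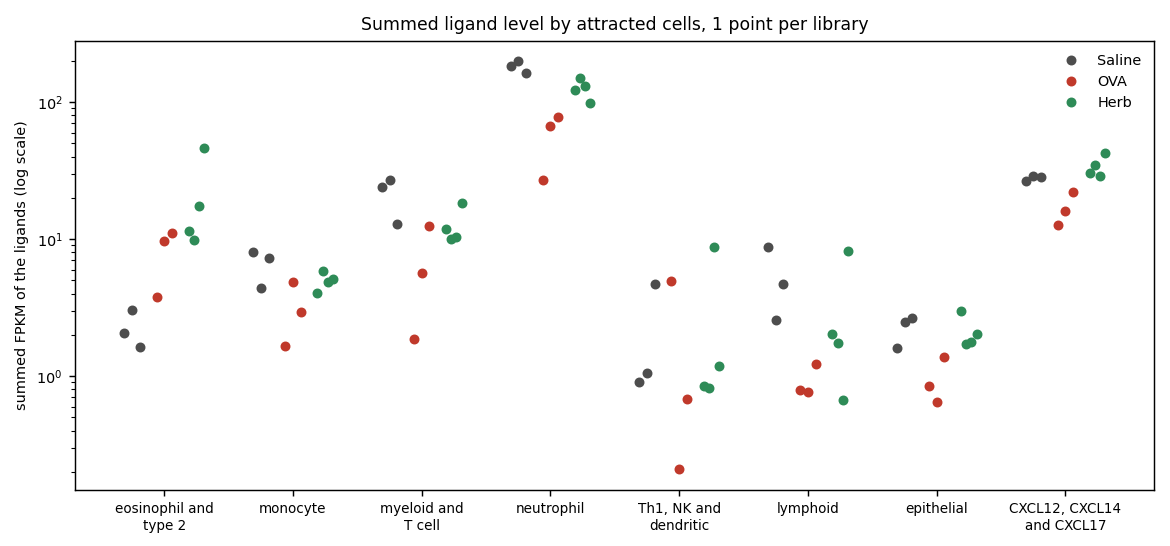
Summed FPKM as deposited of the ligands in 8 classes by the cells they attract (horizontal axis), on a log scale, with 1 point per library of Saline, OVA and Herb. The eosinophil and Th2 ligands are the class in which every OVA and Herb library lies above every Saline library, and the neutrophil ligands, dominated by Cxcl15, lie lowest in OVA.

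The comparison of Herb with OVA asks what accompanied the extract in challenged mice. On the deposited values, 9 of the 26 members (34.6%) were higher in Herb, namely Ackr3, Ccl11, Ccl5, Ccl9, Ccr1, Cx3cl1, Cxcl12, Cxcl15 and Cxcr2, and none was lower, against 44% and 0.446% of all symbols. The median difference was 0.62 over the members and 0.48 over all symbols. On the scaled values no member was called in either direction, against 0.348% and 0.455% of all symbols, and 4 members had an unadjusted p under 0.05. With the minimum of 0.3 FPKM, 12 of 47 members were higher and none lower before scaling, against 35% and 0.419%, and after scaling none was called, against 0.223% and 0.265%. The members added by the lower minimum were Ccl4, Ccr9 and Cx3cr1. The count of 9 fell to 3 when OVA replicate 1 was left out, and the 75th percentile of gene levels was lowest in that library. Neither Ccl8 nor Ccl3 was called in Herb vs. OVA on either scale, and the difference of Ccl3 was near 0 before scaling and below 0 after it. Herb vs. OVA and OVA vs. Saline share the OVA libraries, and for that reason no overlap between their calls is counted.

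Herb compared with Saline shows what differed from the controls under the extract. On the deposited values, 5 members (19.2%) were higher, Ccl22, Ccl3, Ccl8 and Cxcl12 among them, and 5 were lower, namely Ackr3, Ccl5, Cx3cl1, Cxcl14 and Cxcr4, against 3.32% and 22.7% of all symbols. The median difference was -0.02 over the members and -0.27 over all symbols. On the scaled values, 6 members (23.1%) were higher, the same 5 and Ccl11, and 3 (11.5%) were lower, Ackr3, Ccl5 and Cxcr4, against 10.6% and 5.11%, with medians of 0.35 and 0.09. With the minimum of 0.3 FPKM, 8 of 47 were higher and 6 lower before scaling, against 3.39% and 17.6%, and 8 were higher and 3 lower after scaling, against 9.03% and 3.93%. After scaling, no member was higher without Saline replicate 2, and none was lower without any 1 of the Saline libraries, Herb replicate 1 or Herb replicate 3. On the deposited values 1 member was higher without Saline replicate 2.

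A list of 50 further genes of chemokine signalling and leukocyte traffic was set beside the family. It held G protein subunits, kinases, beta-arrestins, integrins, selectins and adhesion molecules, of which 47 were in the table and 40 passed the minimum of 1 FPKM. In OVA vs. Saline 3 (7.5%) were higher and 24 (60%) lower on the deposited values, against 3.28% and 57.9% of all symbols, and 11 (27.5%) were higher and 10 (25%) lower after scaling, against 24.1% and 17.2%. The genes lower on both scales included the adhesion molecules Icam1 (-2.09, adjusted p = 0.000368, and -0.99, adjusted p = 0.0109 after scaling), Icam2 (-2.33, adjusted p = 0.000232 and -1.29, adjusted p = 0.00457) and Itgb1 (-2.72, adjusted p = 0.000151 and -1.60, adjusted p = 0.00120). The chemokine-binding receptor Ccrl2 was also lower on both scales (-2.15, adjusted p = 0.000208 and -1.28, adjusted p = 0.00306). Higher on both scales were Arrb2, a beta-arrestin that takes chemokine receptors off the membrane (1.03, adjusted p = 0.0273 and 1.98, adjusted p = 0.00260), the PI3K-gamma subunit Pik3r5 (0.72, adjusted p = 0.0181 and 1.65, adjusted p = 0.00119) and the phospholipase Plcb2 (0.65, adjusted p = 0.00466 and 1.58, adjusted p = 0.000767). In Herb vs. OVA 20 of the 40 (50%) were higher and none lower before scaling, against 44% and 0.446% of all symbols, and none was called after it, against 0.348% and 0.455%. In Herb vs. Saline 3 (7.5%) were higher and 10 (25%) lower before scaling, against 3.32% and 22.7%, and 5 (12.5%) were higher and 4 (10%) lower after it, against 10.6% and 5.11%.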

How the data were processed

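Lung RNA of 10 mice (Saline n = 3, OVA n = 3, Herb n = 4) was sequenced on TruSeq libraries. The deposited values are FPKM per transcript, which the authors obtained with cutadapt 1.10, HISAT2 and StringTie 1.3.3b on mm10. The labels name a TruSeq RNA kit and the methods a stranded one. Here FPKM of rows with the same symbol were summed, and 31605 rows without a symbol were left out. Differences of log2(FPKM + 1) were tested with limma 3.58.1 (R 4.3.3, intensity trend, all 10 libraries, 3 group means) over 11205 symbols with a mean of at least 1 FPKM, two-sided, with Benjamini-Hochberg adjustment over all of them and a threshold of 0.05. The pseudocount understates changes of low genes. The same fit was run after 75th percentile scaling, and with a minimum of 0.3 FPKM. Both minimums were on the deposited mean over all 10 libraries, so members low in Saline could enter through OVA and Herb. The script was tested on simulated data. Depth was estimated from the steps between low values, at 14800000 to 29500000 fragments per library, and no count test was used.

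The members and the gene lists were chosen with earlier results of these data known. Values in each library are given for members called in any comparison and for the eosinophil, monocyte and neutrophil sets at any level, and other members by range; the library values of Ccl4, Ccl6, Ackr4, Ccr9, Ccr10, Cx3cr1, Cxcl13, Cxcl16, Cxcl17 and Cxcr6 were added after they were seen. Replicate numbers did not pair the libraries, with correlations of deviations between -0.0087 and 0.095. No label ties the samples to separate experiments, so p-values measure the spread between these mice. Promoter windows and positions are RefSeq, GRCm38.p6. Of the 26 members, 1 is counted in the totals and is not reported here.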

Additional observations from a re-analysis of the deposited data

Results flagged for a closer look

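Of the 33 members tested for a library far from the others in the 4 Herb libraries, 3 passed Dixon's critical value at the 95% level, and chance alone flags about 1 in 20 groups. Each time the library was Herb replicate 4. Ccl8 was at 36.0 FPKM there and at 6.22 to 10.3 FPKM in the other Herb libraries, with a gap of 0.864 of the range. Ccr3 was at 0.375 FPKM there and at 0.120 to 0.161 FPKM in the others, with a gap of 0.839. Ccr7 was at 2.30 FPKM there and at 1.93 to 1.95 FPKM in the others, with a gap of 0.937. Without Herb replicate 4, the Ccl8 call in Herb vs. Saline held on both scales.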

How the results depend on the processing

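Scaling decided most counts of members called. As deposited they were 2 higher and 10 lower in OVA vs. Saline, 9 and 0 in Herb vs. OVA and 5 and 5 in Herb vs. Saline. After 75th percentile scaling they were 5 and 4, 0 and 0, and 6 and 3. The same scaling with a minimum of 0.3 FPKM gave 11 and 4, 0 and 0, and 8 and 3, and with a pseudocount of 0.1 it gave 6 and 4 in OVA vs. Saline, 0 for Herb above OVA and 1 lower in Herb vs. Saline. Quantile normalization gave 6 and 4, 0 and 0, and 3 and 2. A common sum of the rows with an mRNA identifier gave 8 and 2, 0 and 0, and 8 and 1. On the deposited values, a minimum of 0.3 FPKM gave 5 higher in OVA vs. Saline, with 8 for Herb above Saline, a minimum of 5 FPKM gave 1 and 3, 2 and 0, and 2 and 1, the fit of only the groups compared gave 1 higher in OVA vs. Saline, and the largest row of each symbol gave 3 higher in Herb vs. Saline. The cause of these shifts was not tested. Ccr7 in OVA vs. Saline changed sign, to 0.16 after 75th percentile scaling (also with the block or the lower minimum), 0.25 with a pseudocount of 0.1 as well, and 0.41 with the common sum.

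With a library left out, the deposited counts ranged from 0 to 3 higher and 7 to 11 lower in OVA vs. Saline, 3 to 9 and 0 to 0 in Herb vs. OVA, and 1 to 5 and 3 to 6 in Herb vs. Saline. After scaling they ranged from 4 to 6 and 4 to 6, 0 to 0 and 0 to 0, and 0 to 7 and 0 to 4. The replicate number as a block, on replicates 1 to 3, gave 3 and 10, 6 and 0, and 2 and 4, and without the block these libraries gave 2 higher in Herb vs. Saline. The block with the scaling gave 5 and 5, 0 and 0, and 1 and 1. Over the named members, 717 alternative values kept direction and side of the threshold, 264 kept direction and lost the call and 5 changed sign. Fits on replicates 1 to 3, and the scaling combined with another minimum or pseudocount, were chosen after seeing the data. Values under about 1 FPKM rest on few fragments.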
